A study of Mus musculus with 12 samples.

Results

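The genes described here are those that divided 12 skin RNA libraries into the same pair of non-overlapping sides: libraries labelled dermal papilla cells and hair follicle dermal stem cells on one side, and libraries labelled dermal sheath cells and interfollicular dermal cells on the other. The members were chosen by their FPKM values: a gene was a member when all 6 libraries of one side lay above all 6 of the other on log2(FPKM + 1), where FPKM is fragments scaled to transcript length and to the library's mapped total. The filter asked for 1 FPKM or more in 3 or more libraries, which 12774 genes met, and of these 3628 (28.4%) were members, 1281 higher in the papilla and stem-cell libraries (10.0% of the genes tested) and 2347 lower there (18.4%). The sides themselves chose these genes, so levels across the sides are a description with no test, and nothing is read from a count against these percentages.

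All cells came from back skin of male Sox2:GFP/aSMA:dsRed mice at postnatal day 26 to 27, in early anagen, the start of hair growth. This strain carries a green reporter named for Sox2 and a red reporter named for smooth muscle actin (aSMA, encoded by Acta2), and no group lacks them. After digestion with dispase and collagenase, each population was sorted by flow cytometry with antibodies that the labels do not name, and 3 libraries were made for dermal papilla cells, 3 for hair follicle dermal stem cells, 3 for dermal sheath cells and 3 for interfollicular dermal cells. Nothing says whether the 3 libraries of a population came from separate animals or pools, so the p-values below rest on library-to-library spread that may be technical. In such bulk libraries, fewer cells of a type and less RNA per cell cannot be told apart.

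The dermal papilla is a cluster of mesenchymal cells at the base of the follicle that signals to the epithelium around it, and the dermal sheath is a connective tissue cup, partly contractile, that continues from it. Dermal stem cells in the sheath are known to supply new papilla and sheath cells across hair cycles, while interfollicular dermis is a fibroblast-rich tissue between follicles. Fibroblasts secrete collagens, proteoglycans and elastic fibres through the endoplasmic reticulum and Golgi, and the follicle epithelium in early anagen is a proliferating tissue marked by transcription factors such as p63.

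Marker levels did not follow the 4 labels in a simple way. The summed FPKM of 24 fibroblast surface and cytoskeleton genes was 2261 to 4648 in the papilla and stem-cell libraries, against 227 to 384 in the sheath and interfollicular libraries. For 34 epithelial transcription factors the sums were 222 to 660 in the papilla and stem-cell libraries and 962 to 1528 in the sheath and interfollicular libraries. The libraries labelled sheath and interfollicular dermis were therefore low in fibroblast markers and high in epithelial factors, against their labels, and every library of that side shared this, so no result could be given without them. Whether the columns carry the right population names cannot be told from the table, and all values are given by label. The column called sheath library 1 here is titled DSL1, unlike DS4 and DS5, and its cell type label is dermal sheath. Acta2, the gene of the red reporter's name, was no member: it averaged 45.4 ± 35.8 FPKM in papilla, 872 ± 26.0 in stem-cell, 49.3 ± 23.1 in sheath and 8.70 ± 2.60 in interfollicular libraries (SD, n = 3 each). Sox2, a transcription factor of papilla cells in some follicle types, was a member, at 0.882, 2.66 and 7.17 FPKM in papilla and 1.15, 1.17 and 1.11 in stem-cell libraries, against 0.0373, 0.292 and 0.130 in sheath and 0.260, 0.345 and 0.117 in interfollicular libraries.

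Other cell types' markers also varied between libraries, and their part in the results was not tested. Summed FPKM of epidermal differentiation genes was 2199 to 9160 in papilla and 1270 to 2353 in stem-cell libraries, against 275 to 673 in sheath and 1612 to 2301 in interfollicular libraries. Pigment cell genes summed to 280 to 1047 in papilla, 283 to 476 in stem-cell, 39.96 to 45.2 in sheath and 210 to 1133 in interfollicular libraries. Immune genes spanned 102 to 2936 FPKM on the papilla and stem-cell side and 52.7 to 701 on the other, so the sides overlapped. FPKM summed over all genes to 206055 to 262695 in the papilla and stem-cell libraries and to 181683 to 218817 in the other 6, and sequencing depth in reads is unknown.

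**Figure D1:**
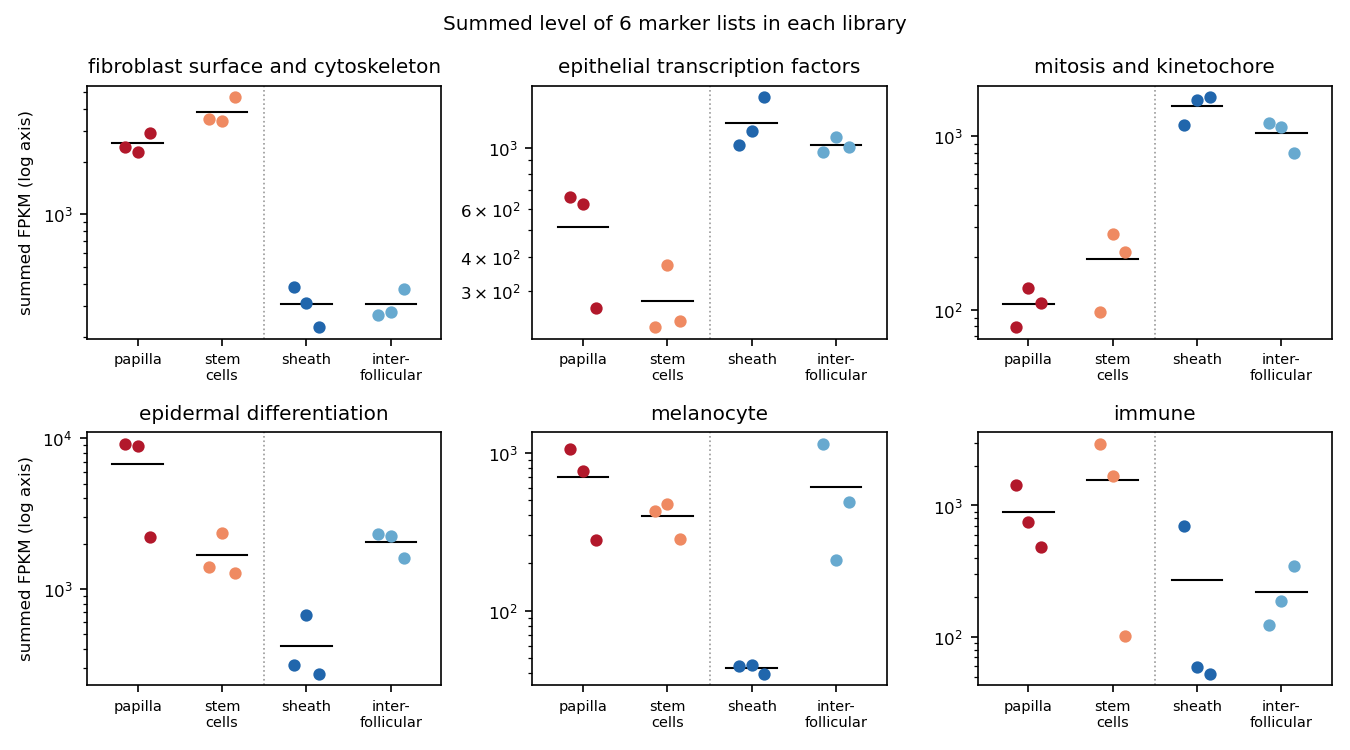
Summed FPKM of 6 marker lists in each of the 12 libraries (log axis), with papilla and stem-cell libraries left of sheath and interfollicular libraries; each point is 1 library. Fibroblast surface genes (2261 to 4648 against 227 to 384), epithelial transcription factors (222 to 660 against 962 to 1528) and mitosis genes (79.3 to 271 against 798 to 1662) did not overlap between the sides, whereas the immune, melanocyte and epidermal differentiation lists did.

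Promoter sequences are shown for genes from the groups that stood on opposite sides: 4 cell cycle genes, all lower in the papilla and stem-cell libraries, and 2 matrix genes, both higher. Ccnb2 encodes a mitotic cyclin, Cdk1 its kinase partner, Mki67 the proliferation marker Ki-67, and Mcm5 a subunit of the replicative helicase; Col1a2 encodes a chain of type I collagen and Pcolce a protein that speeds removal of the collagen C-propeptide. Each run is 180 bases, from 160 before the annotated start to 20 after it, read 5′ to 3′ along the gene's strand from RefSeq (build GRCm38.p6). Capitals mark the CCAAT box, the core of the cell cycle homology region (TTTGAA), and a pair of E2F site forms (TTTCGCGC and TTTGGCGC) on either strand, so that CCAAT on the opposite strand reads ATTGG and TTTGGCGC reads GCGCCAAA.
Ccnb2, chr9:70421535-70421714, minus strand: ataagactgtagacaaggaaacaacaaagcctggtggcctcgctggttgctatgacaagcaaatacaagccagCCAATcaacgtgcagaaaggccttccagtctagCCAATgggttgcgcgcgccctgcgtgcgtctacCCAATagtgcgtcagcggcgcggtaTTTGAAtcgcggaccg
Cdk1, chr10:69352893-69353072, minus strand: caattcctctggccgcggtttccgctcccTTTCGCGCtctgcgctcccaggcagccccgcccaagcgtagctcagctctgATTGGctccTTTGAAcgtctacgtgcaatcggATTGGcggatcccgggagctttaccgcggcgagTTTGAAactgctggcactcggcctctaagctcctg
Mki67, chr7:135716360-135716539, minus strand: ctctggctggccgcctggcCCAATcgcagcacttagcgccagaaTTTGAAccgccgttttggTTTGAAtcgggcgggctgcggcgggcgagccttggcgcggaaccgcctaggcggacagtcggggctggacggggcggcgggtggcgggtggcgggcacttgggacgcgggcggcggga
Mcm5, chr8:75109349-75109528, plus strand: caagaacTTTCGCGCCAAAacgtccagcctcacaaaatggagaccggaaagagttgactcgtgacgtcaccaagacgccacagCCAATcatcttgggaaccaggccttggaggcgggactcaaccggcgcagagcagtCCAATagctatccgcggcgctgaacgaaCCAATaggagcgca
Col1a2, chr6:4505458-4505637, plus strand: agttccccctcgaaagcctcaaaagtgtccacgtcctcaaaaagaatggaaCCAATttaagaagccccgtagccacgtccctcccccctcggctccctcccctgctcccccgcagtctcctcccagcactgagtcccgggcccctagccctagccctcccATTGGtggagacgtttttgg
Pcolce, chr5:137611385-137611564, minus strand: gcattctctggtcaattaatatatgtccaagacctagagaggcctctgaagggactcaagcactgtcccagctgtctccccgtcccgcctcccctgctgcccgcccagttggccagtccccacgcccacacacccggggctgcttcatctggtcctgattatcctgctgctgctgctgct

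Counting from the start, the Ccnb2 run held CCAAT at -87, -54 and -21 and TTTGAA at 5. The Cdk1 run held TTTGAA at -71 and -15, and the Mki67 run held it at -116 and -98. In Mcm5 a TTTCGCGC at -153 overlapped a TTTGGCGC on the other strand at -149, and CCAAT occurred at -77, -22 and 7. Col1a2 had CCAAT at -109 and on the other strand at 1, and none of the 4 motifs was found in the Pcolce run. These are matches of letters, not tested sites.

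The separation was wider for genes higher in the papilla and stem-cell libraries than for genes lower there. The gap, the log2 distance between the nearest libraries of the sides, had a median of 0.57 over the 1281 higher members and 0.35 over the 2347 lower ones. It was at least 1 in 385 higher and 223 lower members, at least 2 in 136 and 16, and at least 3 in 29 and 4. Conversely, 153 higher and 388 lower members were separated by less than 0.1. Higher members took 32.1% to 41.9% of summed FPKM in the papilla and stem-cell libraries, against 6.36% to 9.09% in the sheath and interfollicular libraries. Lower members took 9.29% to 12.2% in the papilla and stem-cell libraries, against 28.6% to 34.7% in the sheath and interfollicular libraries.

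**Figure D2:**
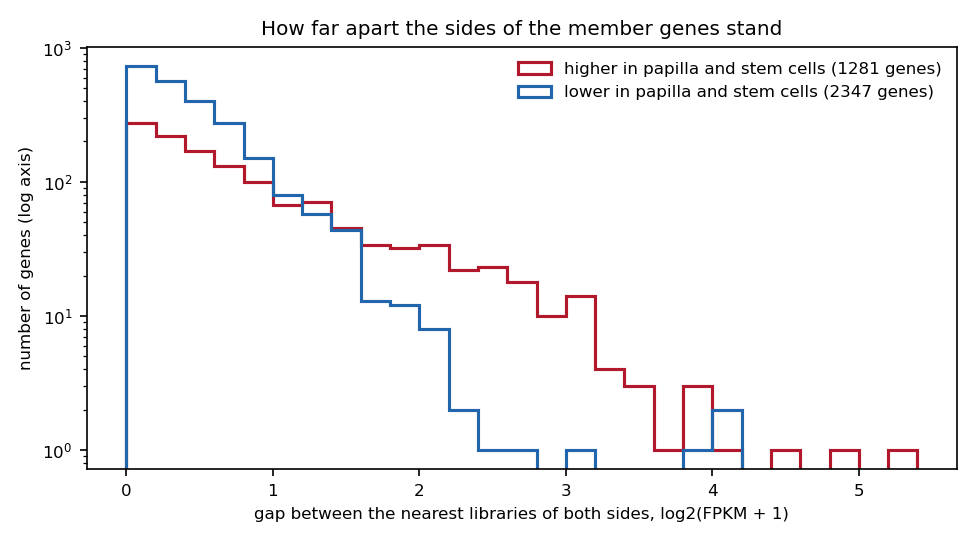
Number of genes (log axis) by gap, the log2(FPKM + 1) distance between the nearest libraries of the sides, for the 1281 genes higher and the 2347 genes lower in the papilla and stem-cell libraries. Most gaps were below 1, and the higher members reached farther, with 136 against 16 genes at a gap of at least 2.

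The rule's edge ran through genes that hardly differed from their neighbours. Just inside, Adh1 was separated by a gap of 0.00097, with a lowest papilla or stem-cell value of 3.982 FPKM and a highest sheath or interfollicular value of 3.979. St3gal4 and Zfyve21 followed at gaps of 0.0012 each. Just outside stood Psmb8, Cav1 and Nnt, with gaps of -0.00031, -0.00041 and -0.0014, where a value below 0 means overlap. Among lower genes, Naa10, Tnfrsf18 and Sytl1 lay inside by 5.0e-05, 0.00021 and 0.00022, and Ctps, D17Wsu92e and Fv1 lay outside at -0.00021, -0.00026 and -0.00046. A further 18 genes in the higher direction and 20 in the lower were tied at a listed value of 0 and were left out.

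Single libraries often set the gap. Interfollicular library 6 was the highest of its side in 35.6% of higher members and the lowest of its side in 33.5% of lower members. Stem-cell library 2 was the highest of the papilla and stem-cell side in 36.2% of lower members, and papilla library 2 the lowest in 25.2% of higher members. Leaving out any 1 library gave 1307 to 1473 higher and 2398 to 2655 lower members.

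Scaling moved the balance between the directions. Over all genes tested, the median difference of side means was -0.25 as deposited and -0.01 after median-of-ratios scaling, and the higher direction held 35.3% of members as deposited, 24.6% after scaling to equal FPKM sums, 41.8% after quantile normalization and 54.2% after median-of-ratios scaling. No member changed direction under any of these, and 975 higher members (76.1%) and 1488 lower members (63.4%) were members under all 4 scalings. Differences below are as deposited and stand beside that median of -0.25. Of the members named, Anxa8, Bub3, Chodl, Cox4i2, Cyp2f2, Dnmt3a, Fndc1, Igfbp4, Itgb4, Jakmip2, Krt10, Krt77, Ltbp1 and Shh were not members under all 4 scalings. The 6 genes just inside the rule's edge were not members under all 4 either.

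Collagen genes were among the most abundant higher members. Of 8 tested fibrillar collagen genes 7 were higher and none lower, of 15 other collagens 9 were higher and none lower, and of 32 collagen processing genes 26 were higher and none lower. The median differences of side means over these lists were 3.71, 1.90 and 2.51, beside -0.25 over all genes tested. Under all 4 scalings 6, 8 and 23 of them were members.

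Col1a1, the other chain of type I collagen, stood at 7642, 3167 and 5729 FPKM in papilla and 2639, 2405 and 3230 in stem-cell libraries, against 104, 373 and 229 in sheath and 23.2, 152 and 415 in interfollicular libraries. Even the lowest stem-cell library was above the highest interfollicular library 5.80 times over. Col1a2, whose promoter is shown above, had 5539, 3019 and 5052 FPKM in papilla and 1687, 1855 and 2480 in stem-cell libraries, against 75.8, 297 and 131 in sheath and 28.9, 152 and 304 in interfollicular libraries. Both type I chains thus had the same order of sides, with interfollicular library 6 highest of the low side. Col3a1, the chain of type III collagen of extensible tissue, ranged from 1677 to 6107 FPKM with a median of 3073 in the papilla and stem-cell libraries, against 36.0 to 292 with a median of 84.7 in the sheath and interfollicular libraries. Col5a3 and Col5a2, chains of the type V collagen that nucleates fibrils, had medians of 24.3 and 137 FPKM in the papilla and stem-cell libraries, against 1.56 and 9.55 in the sheath and interfollicular libraries.

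Among the other collagens, the type VI chains Col6a1, Col6a2 and Col6a3, which form beaded filaments around cells, had medians of 258, 271 and 161 FPKM on the papilla and stem-cell side, against 15.5, 15.9 and 10.03 on the sheath and interfollicular side. Col14a1, a collagen bound to fibril surfaces, spanned 27.9 to 106 FPKM against 1.75 to 9.33. Of the processing enzymes, Pcolce had the widest gap after those listed at 0 and Mfap5, at 625, 384 and 635 FPKM in papilla and 458, 408 and 470 in stem-cell libraries, against 12.4, 14.1 and 14.6 in sheath and 9.51, 17.0 and 22.9 in interfollicular libraries. Loxl1, a lysyl oxidase that cross-links elastin, spanned 18.3 to 32.4 FPKM in the papilla and stem-cell libraries and stayed at or below 1.13 in the other 6. The collagen chaperones Fkbp7 and Fkbp10 had medians of 152 and 37.2 FPKM in the papilla and stem-cell libraries, against 7.45 and 2.55 in the sheath and interfollicular libraries.

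Proteoglycans and elastic fibre genes followed the same sides. Of 11 small leucine-rich proteoglycans 10 were higher and none lower (9 under all scalings, median difference 3.75), and of 19 elastic fibre and microfibril genes 13 were higher and none lower (12 under all scalings, median 2.76). Mfap5, a microfibril-associated glycoprotein, had the widest gap of all genes above 0 in every library. It stood at 120, 110 and 89.4 FPKM in papilla and 229, 191 and 264 in stem-cell libraries, against 1.75, 0.416 and 0.227 in sheath and 0.453, 1.501 and 2.13 in interfollicular libraries. The nearest libraries of the sides differed 42.0-fold.

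Ogn, the proteoglycan osteoglycin, spanned 177 to 305 FPKM on the papilla and stem-cell side and 1.74 to 11.2 on the other. Lum (lumican) and Aspn (asporin), which bind collagen fibrils, had medians of 289 and 214 FPKM in the papilla and stem-cell libraries, against 9.0 and 6.91 in the sheath and interfollicular libraries. The side differences were therefore of similar order for the 3 proteoglycans. Fbn1, encoding fibrillin of the microfibril scaffold, spanned 79.0 to 133 FPKM on the papilla and stem-cell side and 2.11 to 11.4 on the other. Eln, encoding elastin, spanned 44.3 to 103 FPKM against 3.84 to 7.96.

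Adhesive glycoproteins, proteases and secreted inhibitors were also mostly higher members or non-members. Of 27 matricellular genes 15 were higher and none lower (14 under all scalings, median difference 2.18), and of 29 proteases and inhibitors 16 were higher and none lower (15, median 2.14). Sparc, a collagen-binding matricellular protein, was among the most abundant, at 3417 to 7960 FPKM with a median of 4893 in the papilla and stem-cell libraries, against 93.0 to 382 with a median of 181 in the sheath and interfollicular libraries. Postn (periostin) had medians of 703 and 42.9 FPKM on the same sides. Mmp2, a gelatinase, spanned 120.3 to 237 FPKM in the papilla and stem-cell libraries, against 2.22 to 16.7 in the others. Its inhibitors Timp2 and Timp1 had medians of 264 and 37.4 FPKM in the papilla and stem-cell libraries, against 23.8 and 3.16 in the sheath and interfollicular libraries. The other inhibitors of the family, Timp3 and Timp4, were not members, with side differences of 0.10 and 0.05.

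Serpinf1 (pigment epithelium-derived factor), Dpt (dermatopontin, a matrix protein), Ccdc80 (a matrix-associated protein), Serping1 (the C1 inhibitor of complement), Gpc3 (a cell-surface heparan sulfate proteoglycan), Dpep1 (a dipeptidase) and the long non-coding RNA Meg3 were also among the 12 widest gaps, with Cd248 and Pdgfrl, which are described further on. Their lowest papilla or stem-cell values were 345, 219, 136, 341, 172, 48.1 and 74.2 FPKM, against highest sheath or interfollicular values of 20.9, 13.9, 10.4, 31.3, 17.3, 3.63 and 7.19. None of these genes came closer than 9.94-fold between the nearest libraries.

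For basement membrane genes, of 13 genes on the mesenchymal list 8 were higher and 1 lower, and under all scalings 6 and 0. Nid1 (nidogen, a linker of laminin and collagen IV) spanned 116 to 269 FPKM on the papilla and stem-cell side and 6.86 to 16.1 on the other. Lama2, a laminin chain of mesenchymal basement membranes, had medians of 30.6 FPKM on the papilla and stem-cell side and 4.23 on the other. On the epithelial list of 16 genes none was higher and 3 were lower, a share near the 18.4% over all genes tested, and 2 were lower under all scalings. These were Fermt1, the integrin activator kindlin-1, at 0.465 to 2.28 against 6.32 to 11.9 FPKM, Lama5, a laminin chain of epithelial basement membranes, at 0.930 to 5.71 against 8.87 to 28.9, and Itgb4, the hemidesmosome integrin, at 1.68 to 6.995 against 7.025 to 20.01. Itgb4 was not a member under every scaling.

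**Figure D3:**
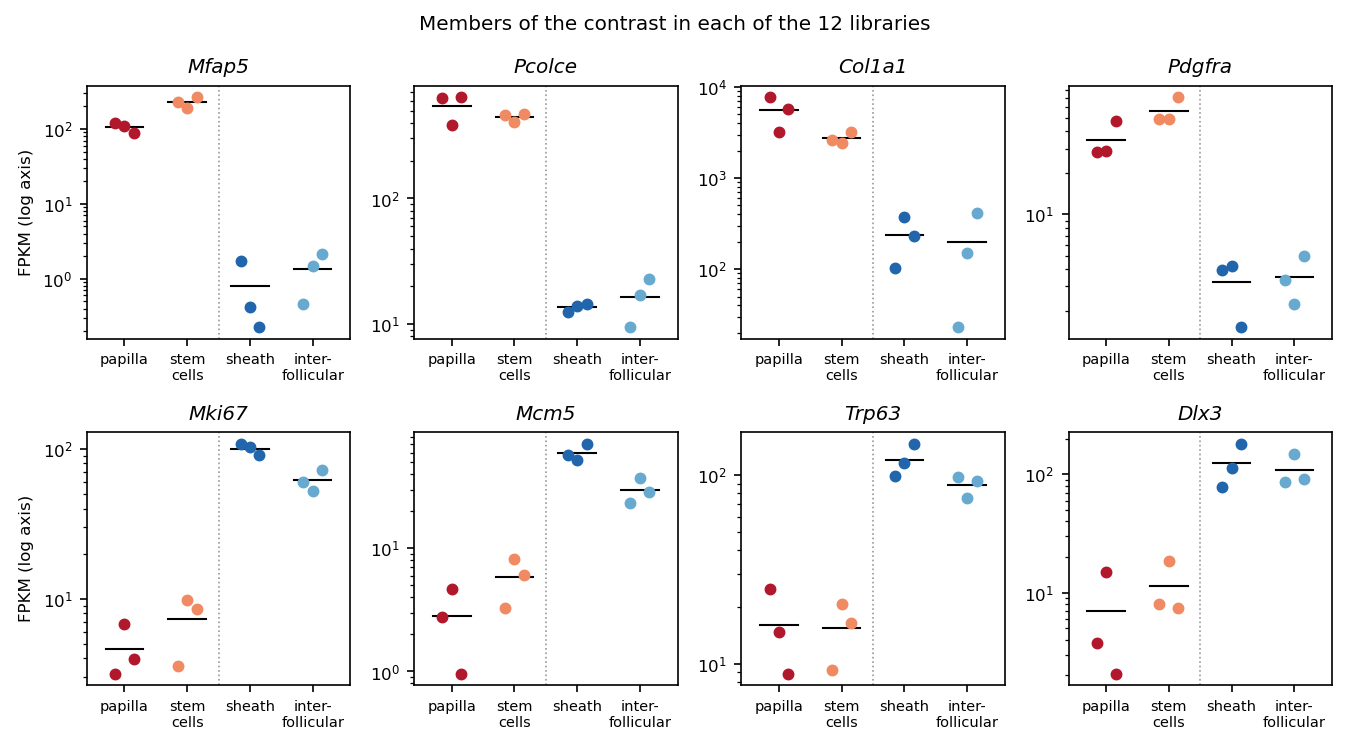
FPKM (log axis) of 8 members in each of the 12 libraries, with papilla and stem-cell libraries left of sheath and interfollicular libraries; each point is 1 library and each black line the mean of a population. Mfap5, Pcolce, Col1a1 and Pdgfra lay higher and Mki67, Mcm5, Trp63 and Dlx3 lower in every papilla and stem-cell library than in any other library.

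Fibroblast surface genes had the largest share of higher members outside the matrix lists. Of 23 tested, 20 were higher, none was lower, and all 20 remained members under the 4 scalings (median difference 2.97). Pdgfra, the receptor of platelet-derived growth factor that marks fibroblasts, stood at 28.3, 28.9 and 47.4 FPKM in papilla and 49.0, 48.9 and 70.6 in stem-cell libraries, against 3.95, 4.22 and 1.52 in sheath and 3.32, 2.24 and 4.95 in interfollicular libraries. Cd248 (endosialin, a stromal surface protein) spanned 46.9 to 85.8 FPKM on the papilla and stem-cell side, against 0.998 to 4.14 on the other. Fstl1, a secreted follistatin-like protein, had medians of 558 FPKM on the papilla and stem-cell side and 42.1 on the other. These genes were low but not at 0 in the sheath and interfollicular libraries.

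Of 32 transcription factors listed for dermal fibroblasts, 16 were higher and 1 lower, and under all scalings 16 and 0 (median difference 1.59). Twist2 and Prrx1, factors of dermal and limb mesenchyme, had medians of 30.8 and 78.4 FPKM in the papilla and stem-cell libraries, against 1.84 and 5.02 in the sheath and interfollicular libraries. Osr1 reached at most 0.514 FPKM in the sheath and interfollicular libraries, against 5.53 to 8.91 in the papilla and stem-cell libraries, and Tbx15 spanned 22.7 to 111 FPKM in the papilla and stem-cell libraries and 1.15 to 4.35 in the others. Among 28 papilla markers 10 were higher, none was lower, and 18 were not members. Corin, a serine protease of papilla cells, spanned 37.7 to 107 FPKM on the papilla and stem-cell side and 1.39 to 15.004 on the other, and Alx4, a homeodomain factor, 6.37 to 34.2 against 0.205 to 2.71. Of 25 contractile genes 4 were higher (16%, beside 10.0% over all genes tested) and none lower, and the remaining 21 overlapped between the sides.

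In the Wnt pathway, of 13 secreted Wnt modulators 6 were higher (46.2%) and none lower, all 6 under every scaling (median difference 2.15). Of 19 Wnt receptors and co-receptors none was higher and 5 were lower (26.3%), all 5 under every scaling (median -0.48). Over all genes tested 10.0% were higher and 18.4% lower, with a median difference of -0.25. Rspo1, an R-spondin that strengthens Wnt signalling, spanned 12.2 to 115 FPKM on the papilla and stem-cell side and 1.54 to 7.13 on the other. Frzb and Dkk3, a secreted frizzled-related protein and a Dickkopf family member, had medians of 8.57 and 26.4 FPKM on the papilla and stem-cell side and 0.903 and 4.15 on the other. The receptor Fzd10 showed the opposite order, at 1.77, 3.49 and 0.807 FPKM in papilla and 1.47, 2.67 and 2.09 in stem-cell libraries, against 23.4, 23.7 and 24.1 in sheath and 18.5, 28.6 and 20.4 in interfollicular libraries.

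Rnf43 and Znrf3, ubiquitin ligases that remove Wnt receptors and are inhibited through R-spondins, had medians of 0.707 and 1.76 FPKM in the papilla and stem-cell libraries, against 8.04 and 8.70 in the sheath and interfollicular libraries. The receptors Fzd6 and Fzd7 were lower members too, at medians of 2.86 and 7.80 FPKM against 11.98 and 18.7. Of 11 Wnt ligands 1 was higher and 1 lower (9.09% each, beside 10.0% and 18.4% over all genes tested). Wnt4 was lower, at 0.994 to 3.62 FPKM in the papilla and stem-cell libraries against 12.7 to 23.98 in the others, and Wnt2 was higher, at 0.587 to 8.97 FPKM against 0 to 0.216.

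In the hedgehog pathway 2 of 12 genes were higher and 2 lower (16.7% each, beside 10.0% higher and 18.4% lower over all genes tested). The higher ones were the Shh co-receptors Gas1 and Cdon, at medians of 10.6 and 7.08 FPKM in the papilla and stem-cell libraries, against 2.31 and 1.70 in the sheath and interfollicular libraries. The lower ones included the ligand Shh, described below, which was not a member under every scaling. In the BMP and TGF-beta pathway 9 of 30 were higher and 1 lower (7 and 1 under all scalings). The receptors Tgfbr3 and Tgfbr2 had medians of 27.2 and 51.2 FPKM on the papilla and stem-cell side, against 3.52 and 8.21 on the other, and Bmp3 had a median of 7.13 against 0.660.

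Growth factor genes of the FGF and PDGF pathways included 9 higher and 2 lower members of 18 (9 and 1 under all scalings). Besides Pdgfra these included Pdgfrl, a PDGF receptor-like protein, at 84.8 to 256 FPKM in the papilla and stem-cell libraries against 0.667 to 8.22 in the others, and the ligands Pdgfd and Fgf18, at medians of 7.71 and 6.84 FPKM in the papilla and stem-cell libraries, against 0.160 and 0.361 in the sheath and interfollicular libraries. In the insulin-like growth factor system 7 of 13 were higher and none lower (6 under all scalings, median difference 2.25). Igf1, the ligand, spanned 20.2 to 50.5 FPKM on the papilla and stem-cell side and 0.264 to 2.14 on the other. Its binding proteins Igfbp3, Igfbp6 and Igfbp7 had medians of 177, 90.1 and 1217 FPKM on the papilla and stem-cell side, against 22.3, 4.05 and 137 on the other. The remaining 6 genes of the system were not members, and 2 of the 13 had a negative side difference.

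Secretory and lysosomal genes were higher members or overlapped. Of 45 secretory pathway genes 18 were higher and none lower (12 under all scalings, median difference 0.54), and of 28 lysosomal genes 17 were higher and none lower (14, median 1.38). Creb3l1, a membrane-bound transcription factor of collagen-secreting cells, spanned 37.8 to 85.9 FPKM on the papilla and stem-cell side and 1.72 to 5.91 on the other. Sec24d, a cargo adaptor of the COPII coat, spanned 21.9 to 39.0 FPKM against 1.97 to 5.71. Ctsk, Ctsh and Ctsl, the cathepsins K, H and L, had medians of 198, 100.3 and 313 FPKM in the papilla and stem-cell libraries, against 6.68, 7.16 and 40.9 in the sheath and interfollicular libraries.

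Among lower members, genes of cell division were separated in nearly every case. Of 42 tested mitosis and kinetochore genes all 42 were lower in the papilla and stem-cell libraries (41 under all scalings, the exception being Bub3, a spindle checkpoint protein), with a median difference of -2.82. The 42 include Cdc20, listed at 0 in every papilla and stem-cell library, and such a value can be a failed estimate, as described below. Of 39 DNA replication genes 38 were lower (34 under all scalings, median -2.18), and of 26 cyclins, E2F factors and cell cycle inhibitors 16 were lower (13, median -1.40), with none higher in any of these lists. The exception among replication genes was Pcna, the sliding clamp, at 0.441 to 1.93 FPKM in the papilla and stem-cell libraries against 1.75 to 7.78 in the others, where the sides overlapped.

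Mki67 stood at 3.17, 6.74 and 3.94 FPKM in papilla and 3.55, 9.84 and 8.57 in stem-cell libraries, against 108, 102 and 90.7 in sheath and 60.3, 52.3 and 72.7 in interfollicular libraries. The lowest interfollicular library was 5.31 times the highest stem-cell library. Cdk1 stood at 0.660, 1.43 and 2.40 FPKM in papilla and 2.53, 8.39 and 4.95 in stem-cell libraries, against 21.3, 28.8 and 38.9 in sheath and 24.2, 27.7 and 12.9 in interfollicular libraries. Ccnb2 stood at 2.63, 4.46 and 3.65 FPKM in papilla and 2.75, 8.48 and 8.99 in stem-cell libraries, against 33.8, 60.0 and 59.1 in sheath and 45.1, 38.4 and 26.6 in interfollicular libraries. Stem-cell libraries 2 and 4 were the highest of the low side for all 3 genes. Cenpe, a kinetochore motor, Ncapg, a condensin subunit, Incenp, a scaffold of the chromosomal passenger complex, and Tacc3, a spindle protein, had medians of 1.03, 2.11, 3.42 and 4.14 FPKM in the papilla and stem-cell libraries, against 14.9, 34.6, 36.4 and 41.5 in the sheath and interfollicular libraries.

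For replication, Mcm5 stood at 2.76, 4.68 and 0.962 FPKM in papilla and 3.27, 8.28 and 6.13 in stem-cell libraries, against 57.2, 52.1 and 70.6 in sheath and 23.2, 37.5 and 29.0 in interfollicular libraries. Mcm2, of the same helicase, had medians of 3.58 FPKM on the papilla and stem-cell side and 33.8 on the other. Gmnn (geminin, which blocks re-licensing of origins) and Prim1 (a primase subunit) had medians of 1.63 and 6.78 FPKM on the papilla and stem-cell side, against 20.8 and 57.5 on the other. Of the regulators, Ccnd2 (cyclin D2) spanned 10.2 to 24.5 FPKM against 90.3 to 218, E2f2 spanned 0.410 to 1.56 against 8.82 to 13.3, and Foxm1, a factor of mitotic gene expression, 0.840 to 3.58 against 12.5 to 30.8. Mycn spanned 0.0281 to 2.02 FPKM in the papilla and stem-cell libraries and 11.9 to 25.8 in the sheath and interfollicular libraries.

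RNA processing, chromatin and nuclear transport genes were lower members with narrower gaps. Of 47 spliceosome and RNA processing genes 35 were lower and none higher (24 under all scalings, median difference -1.19), of 46 chromatin genes 31 were lower and 1 higher (20 and 0, median -1.09), and of 27 nuclear pore and transport genes 16 were lower and none higher (14, median -1.37). Srsf1, a splicing factor, spanned 15.6 to 26.8 FPKM in the papilla and stem-cell libraries and 59.4 to 104.98 in the others. Ezh2, the methyltransferase of Polycomb repressive complex 2, spanned 5.61 to 18.5 FPKM against 37.3 to 84.7, and Dnmt1, the maintenance DNA methyltransferase, 3.72 to 9.66 against 25.4 to 62.4. The single higher chromatin gene was Dnmt3a, a de novo DNA methyltransferase, at 3.16 to 4.39 FPKM against 1.20 to 2.81, named after its values were seen and not a member under every scaling. Nup210, a nuclear pore membrane protein, had the widest gap of its list, at 0.0519 to 1.99 FPKM against 10.3 to 13.7.

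Of 60 cytosolic ribosomal protein genes 8 were lower (13.3%) and none higher (5 under all scalings, median -0.65). Of 38 oxidative phosphorylation genes 12 were lower (31.6%) and none higher (7, median -0.65). Over all genes tested 18.4% were lower. Rps3 spanned 95.4 to 145 FPKM in the papilla and stem-cell libraries and 183 to 285 in the others, and Atp5b, the catalytic subunit of ATP synthase, 105.2 to 196 against 253 to 459. None of 14 glycolysis genes was a member (median 0.31). Most genes of these housekeeping lists therefore overlapped between the sides, as did most of all genes tested, of which 28.4% were members.

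Epithelial genes were lower members in part. Of 32 epithelial transcription factors 17 were lower and none higher (14 under all scalings, median difference -1.50). Trp63, which encodes p63, stood at 24.8, 14.8 and 8.86 FPKM in papilla and 9.23, 20.8 and 16.4 in stem-cell libraries, against 98.7, 116 and 147 in sheath and 98.1, 75.8 and 93.2 in interfollicular libraries. Dlx3, a homeodomain factor of hair matrix and epidermis, spanned 2.08 to 18.6 FPKM against 78.9 to 180.5, Grhl2, a grainyhead factor, 0.118 to 2.53 against 12.9 to 19.1, and Msx2, a homeodomain factor of the hair matrix, 3.83 to 10.8 against 40.7 to 91.0. Neither Trp63 nor Msx2 was at 0 in any papilla or stem-cell library. Bcl11a, a zinc finger transcription factor, Dlx4, a homeodomain factor, and Rassf6, a Ras-association domain protein, also had wide gaps, with highest papilla or stem-cell values of 2.59, 0.764 and 2.46 FPKM against lowest sheath or interfollicular values of 15.2, 6.89 and 14.0.

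Structural epithelial genes were lower members in shares near or below the 18.4% over all genes tested. Of 29 junction genes 4 were lower (13.8%) and none higher, and of 10 basal and follicle keratins 2 were lower (20%). Cdh3 (P-cadherin of basal and matrix cells) spanned 3.43 to 12.5 FPKM against 38.9 to 76.3, and Krt5, a basal keratin, 79.4 to 198 against 305 to 430.5. Of 20 hair matrix and inner root sheath genes only 2 were lower (10%) and none higher. The median difference of that list was 0.02, with 10 genes positive and 10 negative, so it did not follow the sides. One of its lower members, Krt28 of the inner root sheath, spanned 2.60 to 38.0 FPKM against 112 to 199.6. On the differentiated epidermis list 3 of 21 were higher (14.3%, near the 10.0% over all genes tested) and none lower. Its median difference was 1.21, but its summed levels overlapped between the sides. The 3 were Krt1 and Krt10, keratins of the suprabasal epidermis, and Krt77, another keratin of the skin. Krt10 stood at 1959, 2052 and 571 FPKM in papilla and 271, 516 and 296 in stem-cell libraries, against 47.4, 101 and 11.5 in sheath and 120, 166 and 215 in interfollicular libraries. Papilla libraries 1 and 2 were the highest, and only Krt1 of the 3 was a member under every scaling.

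Of 27 Hox genes 8 were lower (29.6%) and 2 higher (7.41%), and under all scalings 7 and 2 (median -0.70). Over all genes tested 18.4% were lower and 10.0% higher. Hoxb8, Hoxb6 and Hoxb3 had medians of 1.09, 2.03 and 2.11 FPKM in the papilla and stem-cell libraries, against 13.6, 23.2 and 8.16 in the sheath and interfollicular libraries. Hoxc4 and Hoxc10 lay the other way, at medians of 6.09 and 5.66 FPKM against 1.62 and 0.893. Hoxc13, a hair matrix factor of the same C cluster, was lower, at 0.180 to 4.40 FPKM against 6.55 to 53.3, so the C cluster held members of both directions.

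**Figure D4:**
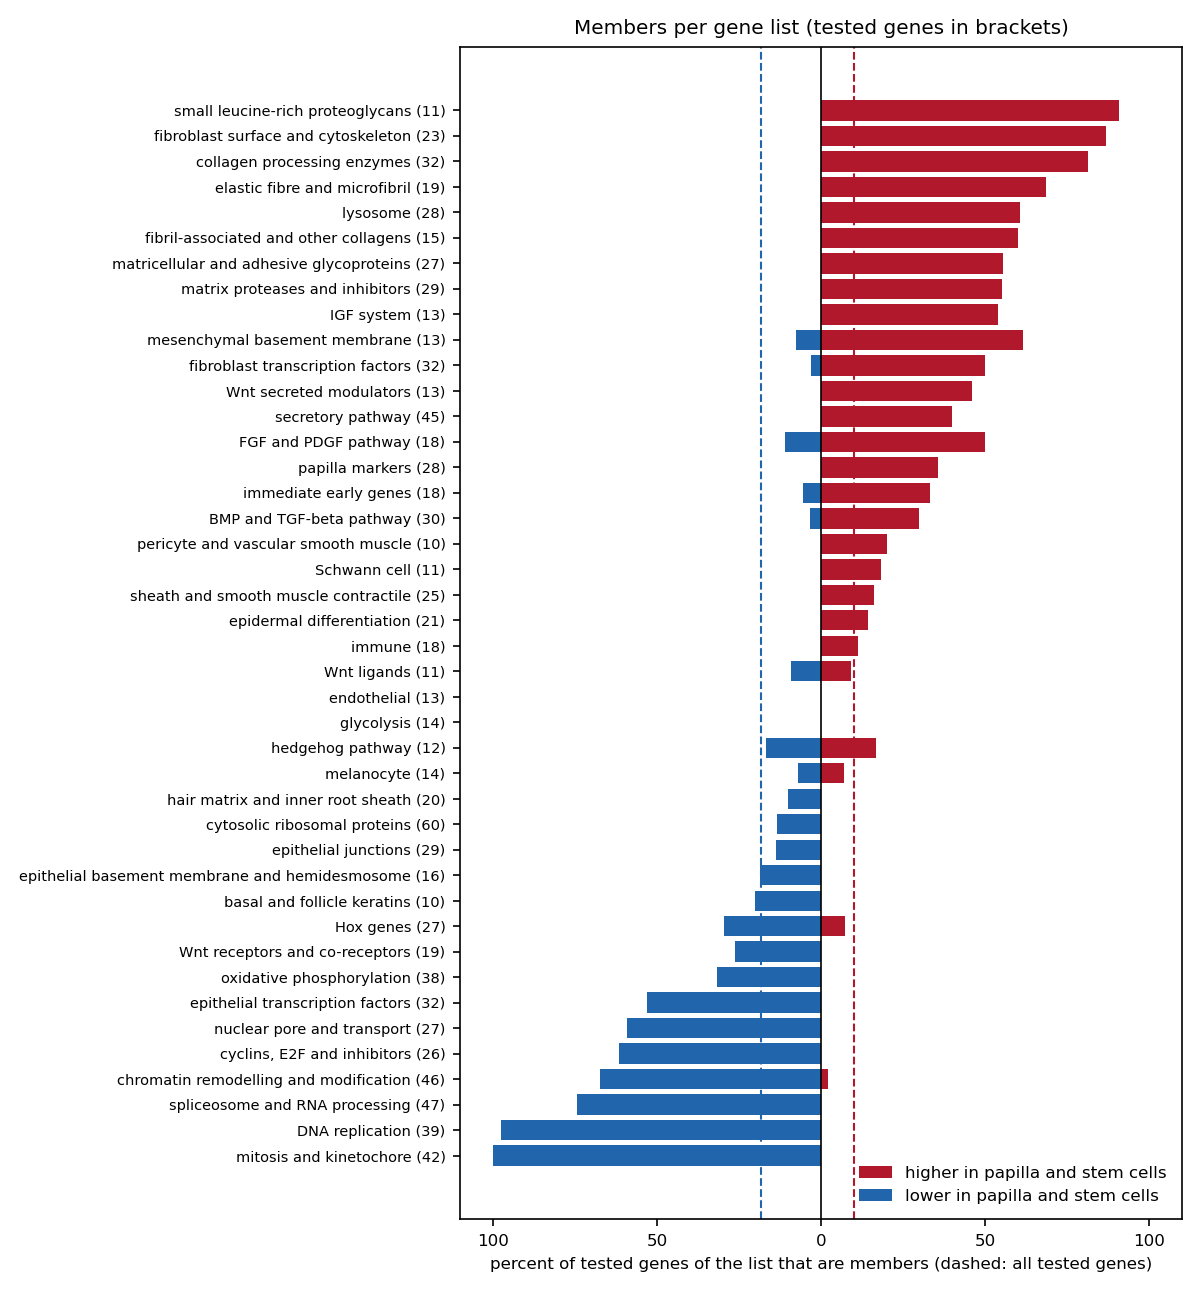
Percent of tested genes in each list that were members, higher (right) or lower (left) in the papilla and stem-cell libraries, for lists with at least 10 tested genes; dashed lines mark all genes tested, 10.0% higher and 18.4% lower. Matrix, fibroblast surface and lysosomal lists extended to the higher side and mitosis, DNA replication, spliceosome and chromatin lists to the lower side.

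Markers of other cell types gave members on some lists and none on others, beside 10.0% higher and 18.4% lower over all genes tested. None of 13 endothelial or 5 red blood cell genes was a member, and pigment cell genes gave 1 higher and 1 lower of 14. The higher one was Ednrb, the endothelin B receptor, at 72.6, 53.4 and 38.2 FPKM in papilla and 338, 364 and 256 in stem-cell libraries, against 9.03, 6.31 and 8.72 in sheath and 26.9, 6.20 and 12.9 in interfollicular libraries. The lower one was Kit, a receptor of melanocytes and mast cells, at 0.394 to 6.78 FPKM in the papilla and stem-cell libraries against 10.4 to 23.6 in the others. Of 18 immune genes C1qa, a complement chain of macrophages, and Aif1, a macrophage protein, were higher. C1qa spanned 12.98 to 628 FPKM in the papilla and stem-cell libraries against 0.301 to 4.74 in the others. Pericyte genes gave 2 higher of 10 (Ndufa4l2 and Cox4i2), skeletal muscle genes 2 of 6 (Tnnt3 and Ckm) and adipocyte genes 1 of 3 (Lpl), with none lower. Schwann cell genes gave 2 higher of 11, Pmp22 and S100b, and their list summed to 244 to 432 FPKM in the papilla and stem-cell libraries against 46.8 to 74.5 in the others.

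Of 18 immediate early genes, which respond quickly to stimulation and tissue handling, 6 were higher (33.3%) and 1 lower (5.56%). Under all scalings these were 3 and 1, and over all genes tested 10.0% were higher and 18.4% lower. Dusp1 and Zfp36 spanned 316 to 421 and 476 to 697 FPKM in the papilla and stem-cell libraries, against 66.0 to 115 and 133 to 220.2 in the others, and Egr3 lay the other way at 5.92 to 23.6 against 42.2 to 54.1. Dissociation was the same for all populations as far as the labels say, and its part was not tested.

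A few members were listed at exactly 0 in every library of one side. In the higher direction these were Kdelr3, a receptor that returns proteins to the endoplasmic reticulum, at 40.3 to 81.7 FPKM in the papilla and stem-cell libraries, Ndufa4l2, a mitochondrial protein, at 21.5 to 85.2, Snapin, a SNARE-associated protein, at 5.57 to 16.3, and Lgi4, a secreted glial protein, at 3.14 to 15.1. In the lower direction there were 9, including Polr2b, a core subunit of RNA polymerase II, at 15.4 to 40.4 FPKM in the sheath and interfollicular libraries, Pold2, of DNA polymerase delta, at 16.1 to 44.8, and Cdc20, a mitotic activator, at 5.602 to 17.9. Because Polr2b is needed by every cell, a listed 0 in this table can be a failed estimate, and no fold is given for these genes.

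Within the papilla and stem-cell side, which the rule did not compare, many members still differed between the populations. By limma on log2(FPKM + 1) with Benjamini-Hochberg adjustment over all genes, 1110 of 12774 genes (8.69%) passed an adjusted p of 0.05 between papilla and stem cells, 295 higher (2.31%) and 815 lower (6.38%) in papilla. Of the 1281 higher members 212 (16.5%) passed, 60 higher and 152 lower in papilla, and of the 2347 lower members 78 (3.32%) passed, 4 higher and 74 lower. Because non-overlap limits how far the libraries of a side can spread, these shares are not set against each other. When replicate number was fitted as a block in the 6 libraries, 658 genes passed, with 170 higher members and 17 lower members among them. Without stem-cell library 1, 2 or 4 the counts over all genes were 515, 625 and 709, without library 1 or 2 the higher members numbered 113 and 137, and without library 1, 2 or 4 the lower members numbered 41, 20 and 34. Scaling also shifted the balance, with 458 higher and 513 lower genes after median-of-ratios scaling and 493 and 467 after quantile normalization, with 86 higher and 100 or 96 lower among the higher members, and with 12 higher and 29 lower or 13 and 25 among the lower members. Markers of other cell types moved with this contrast: 7 of 14 pigment cell, 4 of 11 Schwann cell, 7 of 29 epithelial junction and 3 of 21 epidermal differentiation genes passed higher in papilla, and their part in the calls was not tested.

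Among the members that passed, the largest positive changes in papilla over stem cells were those of Sfrp4 and Sfrp2, secreted frizzled-related proteins that bind Wnt ligands. Sfrp4 stood at 110, 109 and 60.8 FPKM in papilla, against 5.14, 12.4 and 6.58 in stem-cell libraries, a log2 fold change of 3.41 (SE 0.37, limma adjusted p 0.000219). Sfrp2 averaged 174 ± 18.5 FPKM in papilla and 16.8 ± 5.94 in stem-cell libraries (SD, n = 3 each), 3.34 on the log2 scale (SE 0.37, limma adjusted p 0.000223). Of the 13 Wnt modulators tested 7 passed higher and 1 lower in papilla, the lower one being the member Dkk3 (-1.48, limma adjusted p 0.00408). Frzb, of the same family as Sfrp4, did not pass (0.78, SE 0.54, limma adjusted p 0.391). C7, a complement component, averaged 30.0 ± 18.1 FPKM in papilla and 2.82 ± 1.32 in stem-cell libraries (SD, n = 3 each; log2 fold change 2.87, limma adjusted p 0.00238). Chodl, a C-type lectin-like membrane protein, passed at a limma adjusted p of 0.0105 (log2 2.49) and missed at 0.0629 in the 6 libraries alone without the block. Cyp2f2, a cytochrome P450, passed at a limma adjusted p of 0.0254 (log2 2.33) and missed in several alternatives, with 0.0694 in the 6 libraries with the block and 0.1 without it.

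The members with the largest negative changes in papilla over stem cells included a contractile gene. Actg2, an actin of smooth muscle, stood at 14.9, 17.2 and 9.72 FPKM in papilla, against 240.2, 228 and 239 in stem-cell libraries, a log2 fold change of -4.02 (SE 0.35, limma adjusted p 5.6e-05). Igfbp4, an IGF-binding protein, stood at 56.6, 88.4 and 121 FPKM in papilla and 1104, 785 and 1209.8 in stem-cell libraries (-3.57, SE 0.30, limma adjusted p 4.6e-05). The highest sheath value of Igfbp4 was 46.1 FPKM, below all 3 papilla values, and this gene was not a member under every scaling. Itga11, a collagen-binding integrin subunit, averaged 3.02 ± 1.09 FPKM in papilla and 46.2 ± 8.40 in stem-cell libraries (SD, n = 3 each), -3.57 on the log2 scale (SE 0.29, limma adjusted p 4.6e-05). Cpxm2 and Mustn1, a carboxypeptidase-like protein and a small muscle and skeletal protein, were also lower in papilla, by log2 fold changes of -3.06 and -2.98 (limma adjusted p 0.000223 and 0.00159). Of the 25 contractile genes 21 passed lower in papilla and none higher, most of them not members, among them Acta2 (-4.50, limma adjusted p 0.000124).

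Matrix genes passed in both directions between papilla and stem cells. Over all genes tested 2.31% passed higher and 6.38% lower in papilla, with a median log2 fold change of -0.25. The list counts here are as deposited and were not repeated under other scalings. The genes passing higher and lower numbered 0 and 2 among fibrillar collagens, 2 and 2 among other collagens, 2 and 0 among processing enzymes, 1 and 4 among elastic fibre genes, 1 and 5 among matricellular genes and 0 and 4 among proteases and inhibitors, members or not. Of 11 small proteoglycans 3 passed, all lower in papilla: Omd, Prelp and Bgn, by -2.63, -1.70 and -1.99 on the log2 scale (limma adjusted p 0.00168, 0.0101 and 0.00277). Bgn (biglycan) stood at 613, 349.6 and 587 FPKM in papilla and 2058, 1448 and 2683 in stem-cell libraries. Pcolce2, a relative of Pcolce, passed higher in papilla (2.02, limma adjusted p 0.011), as did Ltbp1, a TGF-beta binding protein (1.61, limma adjusted p 0.0182), and Fn1, fibronectin (1.15, limma adjusted p 0.0193). Dpep1, among the widest gaps, was lower in papilla (-1.80, limma adjusted p 0.00273). Of 39 replication and 42 mitosis genes 5 each passed, all lower in papilla and all members, such as Incenp (-1.41, limma adjusted p 0.00456) and Mcm2 (-1.13, limma adjusted p 0.0234). Over all lower members, 74 passed lower in papilla as deposited, 29 after median-of-ratios scaling and 25 after quantile normalization.

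Within the other side, which the rule did not compare either, fewer calls were made. Between sheath and interfollicular libraries 289 of 12774 genes (2.26%) passed, 120 higher (0.939%) and 169 lower (1.32%) in sheath, including 21 higher members (8 higher and 13 lower in sheath) and 26 lower members (13 and 13). Leaving out sheath library 1, 4 or 5 gave 167, 189 and 103 genes, and leaving out interfollicular library 1 or 2 gave 114 and 163. Among higher members the count was 9 without sheath library 5 or interfollicular library 1, and 32 without papilla library 4. Among lower members it was 13 and 5 without sheath library 1 or 5, and 7 and 9 without interfollicular library 1 or 2. Of the pigment cell list 6 of 14 genes, of the epidermal differentiation list 4 of 21 and of the red blood cell list 4 of 5 passed lower in sheath, and their part was not tested.

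Shh, the hedgehog ligand of the hair matrix and a lower member with a gap of only 0.05, had the largest difference among the members that passed. It stood at 1.48, 3.13 and 1.88 FPKM in sheath, against 70.1, 83.7 and 41.5 in interfollicular libraries (log2 fold change -4.36, SE 0.31, limma adjusted p 5.0e-05). The papilla and stem-cell libraries held 0.313 to 1.40 FPKM, just below the sheath values. Ppap2a, a lipid phosphatase gene, was listed at 0 in all 3 sheath libraries, against 17.99, 19.8 and 7.33 FPKM in interfollicular libraries. Anxa8, an annexin, Lbp, the lipopolysaccharide-binding protein, and Jakmip2, a Janus kinase-interacting protein, were lower in sheath by log2 fold changes of -2.29, -2.27 and -2.25 (limma adjusted p 0.00265, 0.008 and 0.00102).

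In the other direction, Efemp1, a fibulin, averaged 23.6 ± 6.41 FPKM in sheath and 6.55 ± 1.15 in interfollicular libraries (SD, n = 3 each; log2 fold change 1.68, limma adjusted p 0.00195). Ackr3, an atypical chemokine receptor, averaged 23.4 ± 8.88 FPKM in sheath and 5.29 ± 0.826 in interfollicular libraries (SD, n = 3 each; 1.90, limma adjusted p 0.00672). Bgn, Gcnt1 (a glycosyltransferase) and Fndc1 (a fibronectin domain protein) were higher in sheath by 1.88, 1.80 and 1.72 (limma adjusted p 0.00965, 0.0118 and 0.0148), and each missed the threshold without sheath library 5 or interfollicular library 1. For Bgn the values without these were 0.0546 and 0.056, for Gcnt1 0.0703 and 0.0595, and for Fndc1 0.0661 and 0.0786. Fndc1 also missed without sheath library 1, at 0.059.

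**Figure D5:**
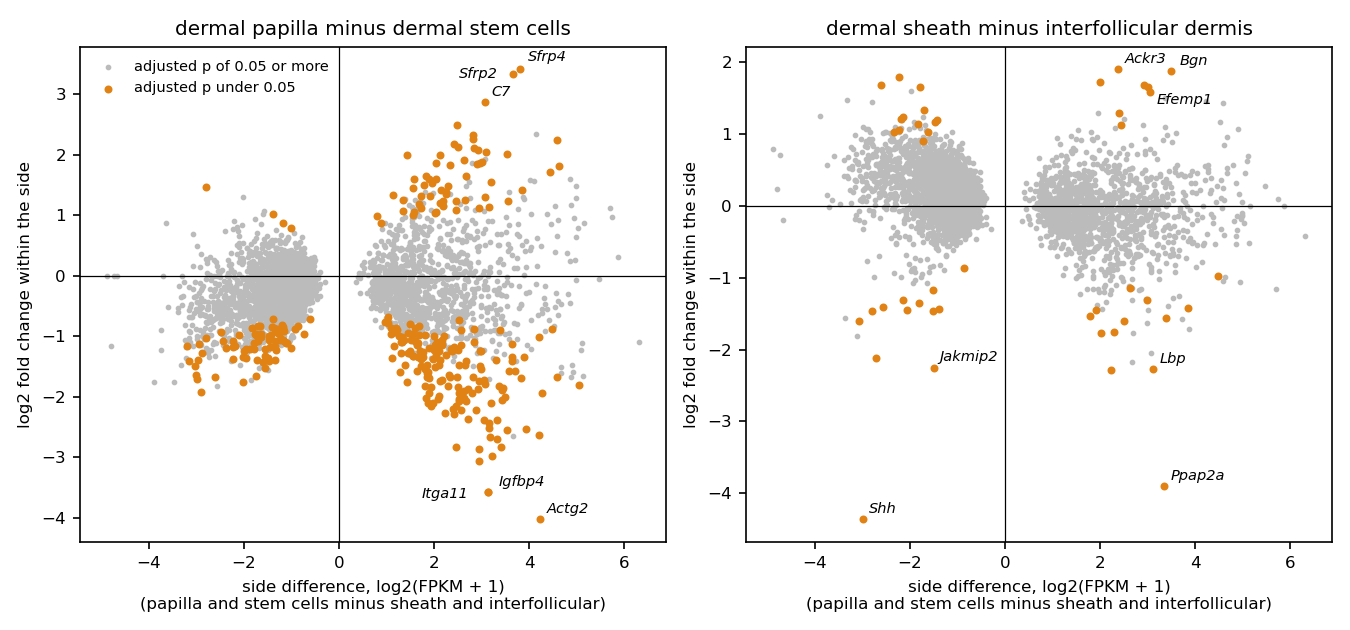
Members plotted by difference of side means (papilla and stem cells minus sheath and interfollicular, log2) against the log2 fold change of papilla over stem cells (left panel) and of sheath over interfollicular dermis (right panel); orange points had a limma adjusted p under 0.05. Sfrp4 (3.41) and Sfrp2 (3.34) were highest and Actg2 (-4.02), Igfbp4 (-3.57) and Itga11 (-3.57) lowest in papilla over stem cells, and Shh (-4.36) was lowest in sheath over interfollicular dermis.

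Promoter composition differed between the directions, as a description over genes with exactly 1 RefSeq window (300 bases, 250 before the start to 50 after it). Windows were matched for 7809 tested genes, 748 of them higher and 1547 lower members. The median number of CpG dinucleotides per window was 18 for higher members, 23 for lower members and 21 for all 7809. Windows with 9 CpG or fewer made up 28.1% of higher members, 6.33% of lower members and 16.7% of all. The 82 windows of the 7 matrix lists had a median of 13.5, but these lists differed. Collagen processing genes had a median of 24 (20 windows), fibrillar collagens 15.5 (6 windows) and other collagens 11 (10 windows). The remaining matrix lists were not counted singly.

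The motifs capitalised in the sequences above were counted on both strands in all windows. TTTGAA occurred in 23 of 31 windows of mitosis genes (74.2%), against 15.6% of lower members, 82 of 748 windows of higher members and 11.9% of all windows. CCAAT was found in 24 of those 31 (77.4%) and in 18 of 25 replication windows (72.0%), against 38.6% of all, and 20 of the 31 (64.5%) held both motifs, against 4.93% of all. An E2F form, TTTCGCGC or TTTGGCGC, occurred in 7 of 25 replication windows (28.0%) and in 1.73% of all. Cdk1, Ccnb2 and Mki67 above are examples with both CCAAT and TTTGAA, and Mcm5 of CCAAT with E2F forms.

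Other motifs split by direction in smaller measure. CCGGAAG, an ETS core, occurred in 8.29% of higher and 24.5% of lower members' windows, against 18.5% of all. CAGCTG, an E-box, occurred in 19.3% and 11.5% against 14.8%, TATAAA in 9.89% and 5.75% against 8.03%, and TGACTCA, an AP-1 site, in 4.55% and 1.81% against 3.73%. Genes with few CpG have other base compositions, and the part of composition in these shares was not tested.

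Some members were neighbours on a chromosome. Runs of consecutive tested genes in the same direction numbered 20 of 3 genes and 3 of 4 among higher members, and 54 of 3, 16 of 4 and 1 of 5 among lower members. With 10.0% of all genes tested higher and 18.4% lower, some runs arise from these shares alone. The number to be expected was not computed, so nothing is read from these counts. On chromosome 13, from 49504810 to 49624501 (RefSeq positions on GRCm38.p6), lie the higher members Ecm2, Aspn, Omd and Ogn, all on the small proteoglycan list. On chromosome 1, from 44551380 to 45503282, lie Gulp1, Col3a1 and Col5a2. On chromosome 11, from 95120117 to 95381872, lie the lower members Dlx3, Dlx4, Kat7 and Fam117a. Gene spans had medians of 27232 bases in higher members, 24510 in lower members and 23267.5 in all tested genes with a position.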

How the data were processed

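RNA was measured in 12 libraries, 3 for each of 4 sorted populations. The authors deposited 1 table of FPKM values for 24692 entries. Per the submitters' processing notes, TopHat2 2.0.13, SAMtools, Cufflinks 2.2.1 and mm10 were used; read depth is not given in the sources used here. FPKM is relative to each library's total, so a few abundant genes move all others.

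Values were tested on log2(FPKM + 1), a scale that understates changes of low genes, for the 12774 genes that reached 1 FPKM in 3 or more libraries. Within-side contrasts used limma 3.58.1 with trend (R 4.3.3), 4 group means, 8 residual degrees of freedom and Benjamini-Hochberg adjustment at 0.05, and the fit was checked on simulated data. Pairing of papilla with stem-cell libraries by the numbers 1, 2 and 4 was read from the data, not from the labels. Deviations of same-numbered libraries from their group means correlated at 0.306, 0.241 and 0.389, and those of different numbers at -0.333 to 0.125. Deviations within a group cancel out, which lowers the values for different numbers, so the pairing is not established. The main fit used no block. Alternatives were other scalings, filters and pseudocounts, each library left out and the replicate block.

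Members and the 47 gene lists were chosen with earlier results of these data known. Named genes were the 12 widest gaps per direction averaging at least 5 FPKM and above 0 throughout, up to 5 per list, the 5 largest passing changes per within-side test and direction, the reporter genes, and the rule's edges. Bub3, Dnmt3a, Pcna, Dkk3, Pcolce2, Ltbp1, Fn1, Omd and Prelp were named after their values were seen. Of the lists' 1140 genes, 1015 passed the filter and 484 were members.

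Positions and promoters came from RefSeq (GRCm38.p6). Genes with near-identical copies share reads, and their values are uncertain.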

Additional observations from a re-analysis of the deposited data

How the results depend on the processing

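The direction of the side difference was checked for most named members, not for those at the rule's edge. It was the same with a pseudocount of 0.1, after quantile normalization and after median-of-ratios scaling. Non-overlap of the sides fixed it in advance for the pseudocount and made a change unlikely otherwise, so nothing is read from it. The balance of directions did change. After median-of-ratios scaling 1767 genes were higher and 1493 lower members, against 1281 and 2347 as deposited, and between papilla and stem cells 493 genes were higher and 467 lower after quantile normalization, against 295 and 815. Requiring a gap of at least 1 left 385 higher and 223 lower members. Between papilla and stem cells, 1110 genes passed with all 12 libraries, 658 with the replicate block in the 6 libraries, 512 in those 6 without the block, and 515 to 1422 when any 1 library was left out. Among higher members 212 passed, 114 with a pseudocount of 0.1 and 113 to 235 with 1 library left out. Among lower members 78 passed, 38 after quantile normalization, 41 after median-of-ratios scaling, 17 with the replicate block, 14 without it and 20 to 111 with 1 library left out. Between sheath and interfollicular dermis 289 genes passed, and 103 to 431 with 1 library left out. For higher members that range was 9 to 32, and for lower members 5 to 30, with 16 at a pseudocount of 0.1. Among the named genes, calls were lost in 17 combinations of gene and alternative, for Chodl, Cyp2f2, Bgn, Fndc1 and Gcnt1, at limma adjusted p of 0.0538 to 0.15. Cyp2f2 was not called in the 6 libraries alone, with the block (0.0694) or without it (0.1), and Chodl was called there with the block but not without it (0.0629). The cause of these shifts was not tested. Fits that left libraries out also rested on fewer libraries. The numbers of sheath and interfollicular libraries share only 1, so no block could be fitted there. With depth unknown, no counting interval could be given for low values.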
